A study of Homo sapiens with 18 samples.

Results

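The collagen genes are the protein-coding genes whose symbol is COL, a number, A and a number in the hg38 annotation. There are 44 of them among 19974 protein-coding genes on chromosomes 1 to 22 and X. Chromatin immunoprecipitation with sequencing (ChIP-seq) had mapped TLE3, a Groucho family corepressor that reaches DNA through other factors, and FOXA1, a pioneer factor with a forkhead domain that opens chromatin in luminal breast epithelium. The cells were 3 established human breast cancer lines, none of which carries a treatment or an engineered allele in the labels: MDA-MB-453 (estrogen receptor negative), SKBR3 (ERBB2-amplified) and T47D (estrogen receptor positive). Each line and factor has 2 replicates, labelled as biological, which gives 12 peak lists. Cells for TLE3 received an extra crosslinker before formaldehyde, and those for FOXA1 did not. Each group is 1 line, so a difference between groups is a difference between these lines.

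Collagens are triple-helical proteins of the extracellular matrix. The fibrillar types carry tension in connective tissue, type IV forms the network of basement membranes, and the fibril-associated collagens with interrupted triple helices (FACIT) decorate fibrils. Fibroblasts make most of the collagen of a breast tumour, while epithelial cells contribute to the basement membrane and anchor to it through transmembrane type XVII and through type VII anchoring fibrils. Whether the labelled cell type holds its markers could not be read from peak lists, which carry no expression.

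Here a site is a region where both replicates had a peak, and it was counted for a gene when its centre lay in the gene body or within 50 kb of it. The FOXA1 lists held 107598 to 188029 peaks and the TLE3 lists 21149 to 94363, without read counts, so depth is unknown. The library labelled SKBR3 TLE3 replicate 2 stands apart from the others: 101 of its 513 peaks at collagen genes (19.7%) overlapped a SKBR3 FOXA1 site, against 105 of 108 (97.2%) for SKBR3 TLE3 replicate 1. Results that need it are therefore given for the pair and for each replicate alone. Of the peaks of each list, 0.318% to 0.409% of the FOXA1 peaks and 0.330% to 0.544% of the TLE3 peaks lay at collagen genes, with the highest TLE3 shares in both SKBR3 libraries (0.511% and 0.544%).

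The 250 bases upstream of 5 collagen transcription starts are shown because a FOXA1 or TLE3 site overlapped their promoter windows, which run from 250 bases before to 50 bases after a start. They come from RefSeq (GRCh38.p14), read 5′ to 3′ on the strand of the gene, and capitals mark CpG dinucleotides. The COL12A1 window (chr6:75206054-75206303, minus strand) held a FOXA1 site in all 3 lines. The start inside COL21A1 (chr6:56091663-56091912, minus strand) did so as well, with 2 CpG against 21 in COL12A1. COL4A5 (chrX:108439588-108439837, plus strand) and COL4A6 (chrX:108439459-108439708, minus strand) start 379 bp apart on opposite strands, and their windows overlap. The start inside COL18A1 (chr21:45455272-45455521, plus strand) held a TLE3 site in T47D and no FOXA1 site.
COL12A1: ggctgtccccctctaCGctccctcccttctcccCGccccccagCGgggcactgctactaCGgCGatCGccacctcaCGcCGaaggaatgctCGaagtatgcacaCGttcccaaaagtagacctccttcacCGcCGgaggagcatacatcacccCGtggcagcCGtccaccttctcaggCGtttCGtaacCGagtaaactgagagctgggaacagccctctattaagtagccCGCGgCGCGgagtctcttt
COL21A1: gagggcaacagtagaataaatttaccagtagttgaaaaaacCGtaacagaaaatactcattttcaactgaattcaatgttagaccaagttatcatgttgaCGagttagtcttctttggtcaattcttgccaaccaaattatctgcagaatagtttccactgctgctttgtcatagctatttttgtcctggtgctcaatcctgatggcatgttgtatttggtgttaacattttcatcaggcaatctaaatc
COL4A5: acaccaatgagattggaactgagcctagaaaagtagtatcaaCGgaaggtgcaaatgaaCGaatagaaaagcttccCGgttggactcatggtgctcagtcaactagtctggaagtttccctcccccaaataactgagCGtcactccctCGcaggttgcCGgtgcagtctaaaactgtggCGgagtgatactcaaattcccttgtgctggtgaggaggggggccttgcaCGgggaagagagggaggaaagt
COL4A6: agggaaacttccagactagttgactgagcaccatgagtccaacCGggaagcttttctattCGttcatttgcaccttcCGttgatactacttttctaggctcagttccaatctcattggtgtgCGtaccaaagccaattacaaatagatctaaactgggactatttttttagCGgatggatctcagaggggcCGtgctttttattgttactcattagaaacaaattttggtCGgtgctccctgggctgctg
COL18A1: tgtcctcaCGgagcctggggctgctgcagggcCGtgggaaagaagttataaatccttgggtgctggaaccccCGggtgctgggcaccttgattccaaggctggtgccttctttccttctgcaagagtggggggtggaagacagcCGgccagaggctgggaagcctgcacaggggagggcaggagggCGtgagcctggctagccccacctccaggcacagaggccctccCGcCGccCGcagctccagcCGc

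FOXA1 sites lay near almost all collagen genes. In MDA-MB-453, 42 of 44 had a FOXA1 site within 50 kb, against 95.1% of the other 19930 protein-coding genes. In SKBR3 the count was 39, against 89.8%, and in T47D it was 44, against 95%. With 10 kb in place of 50 kb the counts were 39, 36 and 40 in the same order, against 82.4%, 70.6% and 80.4% of the other genes. TLE3 sites were fewer. In MDA-MB-453, 30 of 44 had a TLE3 site within 50 kb, against 55.3%, and in T47D 34, against 74.7%. In SKBR3 the pair gave 15, against 35.3%, replicate 1 alone gave 28, against 57.3%, and the library labelled replicate 2 gave all 44, against 96.5%. Within 10 kb, TLE3 sites were found at 25 collagen genes in MDA-MB-453 (others 32.2%), 28 in T47D (others 50.3%) and 12 for the SKBR3 pair (others 19.4%). For SKBR3 replicates 1 and 2 alone the 10 kb counts were 23 (others 34.3%) and 44 (others 88.4%).

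Gene length moves with these counts. Collagen genes had a median length of 145 kb, from 16.8 to 494 kb, against 24.1 kb for the other genes. When all protein-coding genes were cut into tertiles by length, 32 collagen genes fell in the longest, 12 in the middle and 0 in the shortest tertile. Within the longest tertile a TLE3 site lay near 75% of collagen genes and 72.7% of the others in MDA-MB-453, 84.4% and 84.0% in T47D, and 62.5% and 69.5% for SKBR3 replicate 1. FOXA1 sites in that tertile were found at 96.9% against 98.8% in MDA-MB-453, 90.6% against 95.7% in SKBR3 and 100% against 98.6% in T47D. In the middle tertile TLE3 reached 58.3% of 12 collagen genes and 74.4% of the others in T47D, 50% and 50.9% in MDA-MB-453, 16.7% and 34.8% for the SKBR3 pair, and 66.7% and 55.7% for SKBR3 replicate 1. Per 100 kb of gene and window the median collagen gene held 4.50, 2.80 and 3.07 FOXA1 sites in MDA-MB-453, SKBR3 and T47D, against 4.79, 3.06 and 4.07 for the median of the others. By density the median collagen gene was thus below the median of the other genes for FOXA1 in each line. Within 10 kb, FOXA1 sites in the longest tertile were at 93.8% of collagen genes against 96.2% of the others in MDA-MB-453, 84.4% against 89.8% in SKBR3 and 96.9% against 95.9% in T47D, so the larger collagen counts at 10 kb over genes of all lengths were not seen there in MDA-MB-453 or SKBR3.

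**Figure D1:**
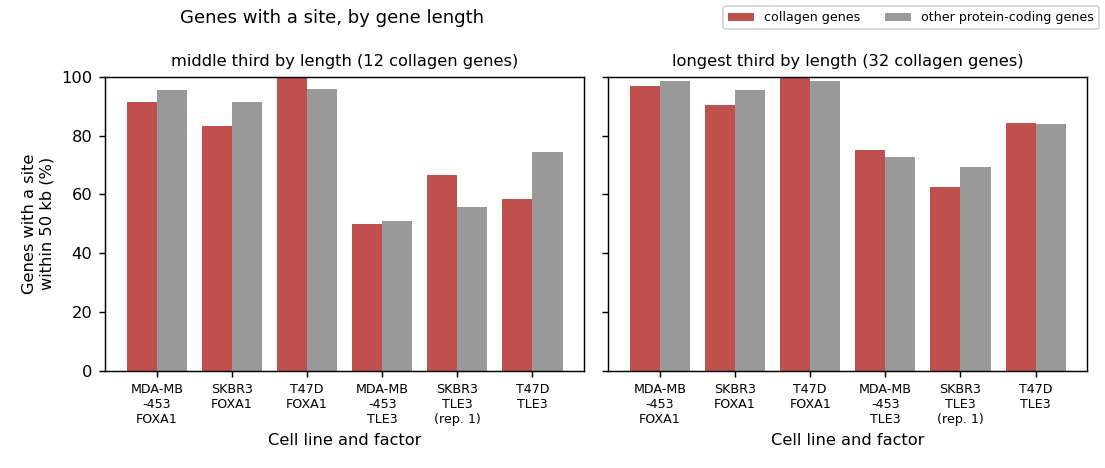
Share of genes with a site in the gene body or within 50 kb (vertical axis, percent) for collagen genes (red) and other protein-coding genes (grey), by line and factor, in the middle tertile of gene length (left, 12 collagen genes) and the longest (right, 32). In the longest tertile the red and grey bars lie close together, from 62.5% against 69.5% for SKBR3 TLE3 replicate 1 to 100% against 98.6% for T47D FOXA1; each bar is 1 count without an error.

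The fibrillar collagens, which build the tension-bearing fibrils, ranged from COL5A2, with the most FOXA1 sites of the collagen genes in MDA-MB-453 and SKBR3, to COL5A3, with 0 or 1. Of 11 members, 10, 10 and 11 had a FOXA1 site in MDA-MB-453, SKBR3 and T47D, and 8, 4 (8 for replicate 1) and 10 a TLE3 site. COL5A2, a type V chain that helps set fibril diameter, had 39, 33 and 25 FOXA1 sites in the 3 lines and 5, 12 and 7 TLE3 sites (SKBR3 by replicate 1, as in the other counts of TLE3 sites given by line). COL1A1 and COL1A2, the chains of type I collagen, had 6, 4 and 5 and 11, 9 and 6 FOXA1 sites. TLE3 sites at COL1A1 numbered 0, 2 and 3, and at COL1A2 4, 2 and 3. COL3A1, the type III chain, had 5, 4 and 2 FOXA1 sites and 1, 1 and 0 TLE3 sites. COL5A3 had no FOXA1 site in MDA-MB-453 or SKBR3 and 1 in T47D. Part of this range is shared ground, since the 50 kb windows of COL3A1 and COL5A2 overlap.

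Type IV chains of the basement membrane all had FOXA1 sites in each line. The median gene had 17, 9.5 and 8 sites in MDA-MB-453, SKBR3 and T47D, and 5, 2 (6 for replicate 1) and 5 of the 6 genes had a TLE3 site. COL4A1 and COL4A2, which encode the common form of the network, start 126 bp apart and share part of their windows. FOXA1 sites numbered 2, 8 and 6 at COL4A1 and 13, 29 and 20 at COL4A2. TLE3 sites numbered 0, 2 and 2 at COL4A1 and 1, 12 and 9 at COL4A2. At both genes MDA-MB-453 had the fewest sites of either factor. COL4A5 and COL4A6, on the X chromosome, went the other way for FOXA1, with 19, 7 and 8 and 28, 10 and 9 sites, the most in MDA-MB-453. The pair COL4A3 and COL4A4, which start 135 bp apart, also had the most FOXA1 sites in MDA-MB-453, at 18, 13 and 8 and at 16, 9 and 7. These numbers are not scaled to the lists, which held 135315, 90520 and 112670 FOXA1 sites. Relative to list length COL4A3 had 0.39 ± 0.21 more FOXA1 peaks (log2) in SKBR3 than in MDA-MB-453, which was not called (limma, adjusted p = 0.148).

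Type VI collagens, which form beaded filaments around cells, had the fewest sites of the larger classes. Of 5 genes, 4, 2 and 5 had a FOXA1 site, 2 and 3 a TLE3 site in MDA-MB-453 and T47D, and 0 in SKBR3 for the pair and for replicate 1. COL6A1 had 0, 0 and 1 FOXA1 sites, COL6A2 had 1, 0 and 1, and COL6A3 had 3, 3 and 4. COL6A1 and COL6A2 lie on chromosome 21 with overlapping windows and held no TLE3 site in any line by the pairs or SKBR3 replicate 1. The library labelled SKBR3 TLE3 replicate 2 had 3 peaks at COL6A1 and 6 at COL6A2.

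Among FACIT collagens, COL21A1 had 27, 15 and 33 FOXA1 sites, COL14A1 had 20, 29 and 13, and COL19A1 had 26, 2 and 11. COL12A1, a FACIT chain on type I fibrils, had 13, 8 and 10 FOXA1 sites and 1, 2 and 3 TLE3 sites. The order of the lines thus differed from gene to gene within the class. At the epithelial border, COL7A1 of the anchoring fibrils had 4, 8 and 7 FOXA1 and 1, 3 and 3 TLE3 sites. COL17A1 of the hemidesmosome had 9, 1 and 6 FOXA1 sites and no TLE3 site in any line. COL18A1, whose C-terminal fragment is endostatin, had 3, 3 and 5 FOXA1 sites and 0, 3 and 6 TLE3 sites, while its multiplexin relative COL15A1 had 3, 22 and 8 FOXA1 sites.

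**Figure D2:**
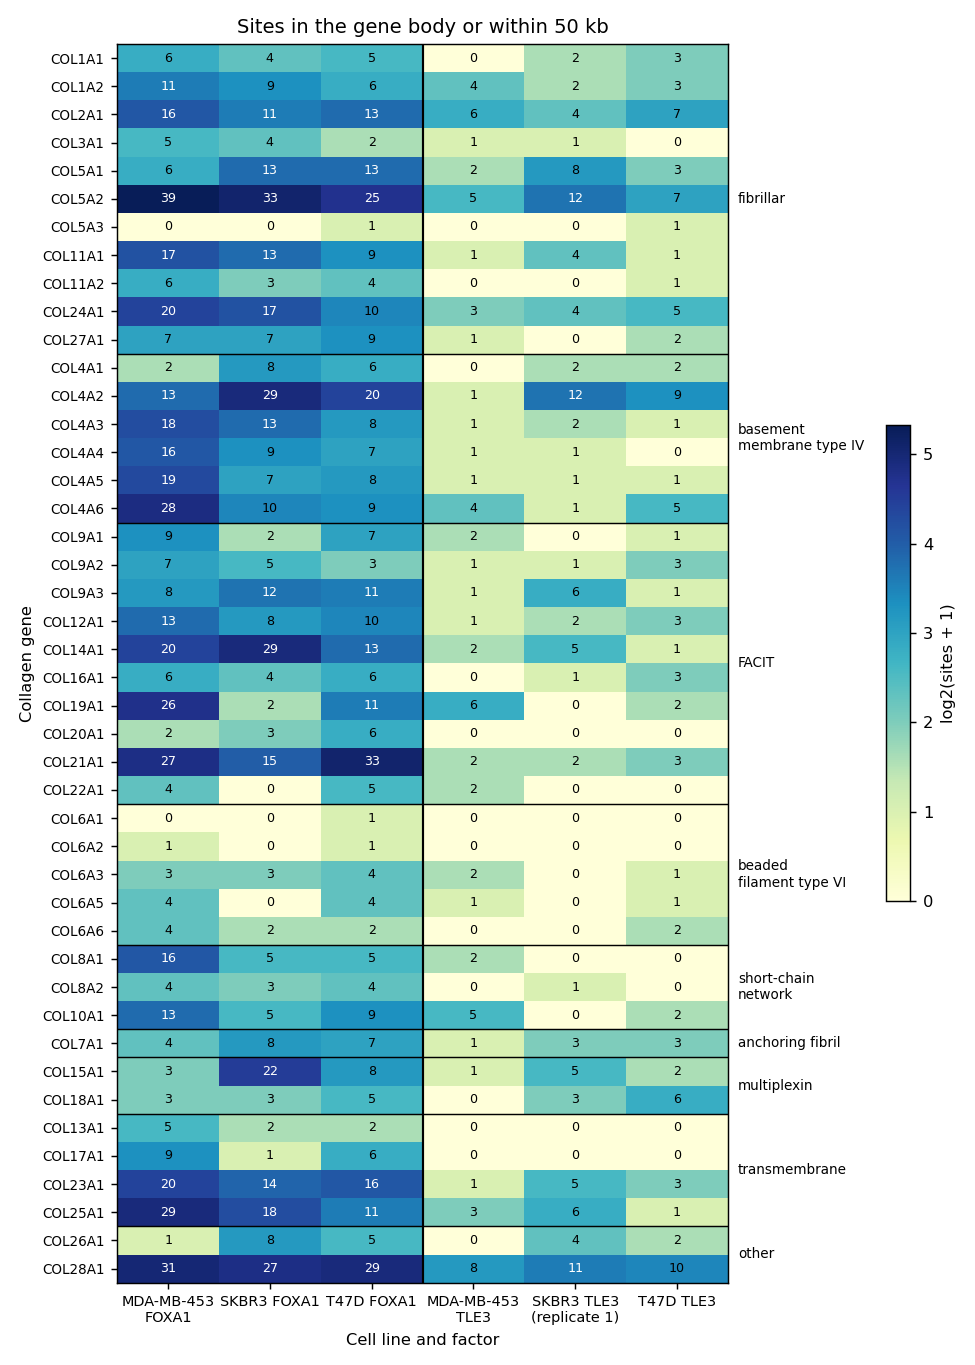
Number of sites in the gene body or within 50 kb (printed in each cell; colour is log2 of the number plus 1) for the 44 collagen genes, grouped by structural class, in the 3 FOXA1 and 3 TLE3 groups, with SKBR3 TLE3 by replicate 1 alone. COL5A2 and COL28A1 hold at least 5 sites in every column, and the type VI rows COL6A1 and COL6A2 hold 0 or 1 site in each.

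The 5 genes with the most FOXA1 sites were COL5A2, COL28A1, COL25A1 (29), COL4A6 and COL21A1 in MDA-MB-453, and COL5A2, COL4A2, COL14A1, COL28A1 and COL15A1 in SKBR3. In T47D they were COL21A1, COL28A1, COL5A2, COL4A2 and COL23A1 (16). COL28A1, which encodes a von Willebrand domain collagen, had 31, 27 and 29 FOXA1 and 8, 11 and 10 TLE3 sites. For TLE3, the leading genes were COL28A1, COL2A1 (6), COL19A1 (6), COL5A2 and COL10A1 (5) in MDA-MB-453 and COL28A1, COL4A2, COL2A1 (7), COL5A2 and COL18A1 in T47D. SKBR3 replicate 1 was led by COL5A2, COL4A2, COL28A1 and COL5A1 (8), followed by COL9A3 and COL25A1 with 6 each. The SKBR3 pair was led by COL4A2 (8), COL5A1 (6) and COL9A3 (4), with 3 each at COL2A1, COL15A1, COL18A1 and COL26A1. Per 100 kb of gene and window, the densest collagen gene for FOXA1 was COL2A1, the cartilage fibril chain, in MDA-MB-453 (12.01 sites) and T47D (9.76), and COL15A1 in SKBR3 (9.70). A TLE3 site in all 3 lines (SKBR3 by replicate 1) was found at 20 collagen genes (others 39.7%), and in none at 5 (others 16.2%), which were COL6A1, COL6A2, COL13A1, COL17A1 and COL20A1. FOXA1 sites lay near 39 genes in all 3 lines (others 87.7%).

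TLE3 at collagen genes lay at FOXA1 sites to about the extent seen elsewhere. In MDA-MB-453, 68 of 69 TLE3 sites at collagen genes overlapped a FOXA1 site (98.6%, elsewhere 99.3%), and in T47D 81 of 98 (82.7%, elsewhere 87.0%). In SKBR3 it was 38 of 41 for the pair (92.7%, elsewhere 91.2%), and 97.2% for replicate 1 against 93.4% elsewhere. In the other direction TLE3 was at 67 of 473 collagen FOXA1 sites in MDA-MB-453 (14.2%, elsewhere 15.8%) and at 79 of 365 in T47D (21.6%, elsewhere 21.9%). In SKBR3 it was at 39 of 374 for the pair (10.4%, elsewhere 7.20%) and at 100 of 374 for replicate 1 (26.7%, elsewhere 20.9%). Sites share genes and libraries, so these shares are descriptions without a test. Merged over the lines, 160 of 711 FOXA1 sites at collagen genes were present in all 3 (22.5%, elsewhere 22.2%), as were 17 of 192 TLE3 sites (8.85%, elsewhere 13.5%, SKBR3 by replicate 1).

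Sites in collagen gene bodies or within 50 kb of them were ranked by score, so where the highest lie is bounded by that choice. Scores are the authors' values and serve here only as percentiles within a list. A site inside COL5A2 (chr2:189225648-189226807 in MDA-MB-453) was the highest ranked FOXA1 and TLE3 site at collagen genes in MDA-MB-453, the highest FOXA1 site in SKBR3 and the highest of SKBR3 TLE3 replicate 1. Its FOXA1 percentiles were 99.97 and 99.99 in MDA-MB-453, 99.8 and 99.7 in SKBR3 and 98.2 and 97.6 in T47D. Its TLE3 percentiles were 99.7 and 99.5 in MDA-MB-453, 98.9 in SKBR3 replicate 1 and 85.9 and 94.4 in T47D. The library labelled SKBR3 TLE3 replicate 2 had no peak there, while the other 11 did.

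A region 15814 to 17011 bp outside COL2A1 (chr12:48021227-48024422 over the lines) had a peak in all 12 libraries. Its percentile was 95.3 to 99.6 in 11 lists and 34.2 in that labelled SKBR3 TLE3 replicate 2, and no protein-coding gene body holds it. At COL28A1, a site in the gene body (chr7:7415926-7416939) led the T47D TLE3 sites, at percentiles 98.6 and 99.6, and a site 16249 bp from the gene (chr7:7321376-7322515) was among the 5 highest for FOXA1 in MDA-MB-453 and SKBR3 and for TLE3 in MDA-MB-453. Further COL28A1 sites among the 5 highest lay at chr7:7554449-7555290 for FOXA1 in SKBR3 and at chr7:7395518-7396328 for FOXA1 in T47D. Several regions were thus high in more than 1 line.

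Other sites ranked among the 5 highest in fewer groups, though most had peaks in further lines. COL5A1, the main type V chain, held the highest SKBR3 TLE3 site of the pair (chr9:134778227-134779506), at percentiles 81.8 and 88.2. It also held the FOXA1 site next below the COL5A2 site in SKBR3 (chr9:134775471-134776944). That FOXA1 site had FOXA1 percentiles of 96.9 and 95.5 in MDA-MB-453 and 92.7 and 93.7 in T47D. A COL26A1 site (chr7:101488683-101489455) was at the 97.9 percentile of SKBR3 TLE3 replicate 1 and had no TLE3 peak in MDA-MB-453. COL14A1 held a TLE3 site of MDA-MB-453 (chr8:120279640-120280560) at percentiles 98.9 and 96.0, against 60.3 and 69.9 in T47D. A COL2A1 gene end (chr12:47972553-47973383) was among the 5 highest for TLE3 in MDA-MB-453 and T47D and had no peak in the 4 SKBR3 libraries. COL24A1, a minor fibrillar chain, held a site among the 5 highest for FOXA1 in MDA-MB-453 (chr1:85817950-85818892). It also held sites among the 5 highest of the SKBR3 TLE3 pair, at lower percentiles. These were chr1:85850216-85850843 (75.9 and 65.9) and chr1:85824078-85824833 (82.6 and 55.4). The site at chr1:85850216-85850843 had a peak in all 12 libraries, with FOXA1 percentiles of 96.3 and 93.9 in T47D. COL4A2 held 1 of the pair (chr13:110507095-110508475), COL18A1 1 of T47D TLE3 (chr21:45513165-45514079, where SLC19A1 overlaps) and COL9A1 1 of T47D FOXA1 (chr6:70241897-70242733), which the COL19A1 window shares. Another COL5A2 site (chr2:189149894-189150550) was high in SKBR3 TLE3 replicate 1.

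Some windows reached other genes, so a site counted for a collagen gene can lie nearer to another gene. The site in the COL10A1 window at chr6:116070559-116072906, with FOXA1 percentiles of 99.97 and 99.98 in MDA-MB-453, lies inside FRK, and that in the COL4A2 window at chr13:110548795-110550018 lies inside RAB20. The nearest gene of the COL1A2 window site at chr7:94476336-94478518 is CASD1, and that of the T47D FOXA1 leader in the COL5A2 window (chr2:189486942-189488425) is WDR75.

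Promoter windows of collagen genes held few FOXA1 sites. RefSeq windows matched 32 of the 44 genes. None was given for COL1A1, COL1A2, COL2A1, COL3A1, COL5A2, COL6A1, COL6A5, COL8A1, COL9A3, COL14A1, COL20A1 and COL22A1, so those promoters were not examined. The matched genes had 44 windows. A FOXA1 site overlapped 4 of 44 in MDA-MB-453 (9.09%), against 32.7% of the 22035 windows of all protein-coding genes, 2 in SKBR3 (4.55%, against 14.4%) and 3 in T47D (6.82%, against 27.7%). TLE3 sites overlapped 3 in T47D (6.82%, against 16.5%) and 0 in MDA-MB-453 (against 1.81%). For SKBR3 TLE3 it was 1 for the pair (against 3.32%), 0 for replicate 1 (against 2.77%) and 10 for the library labelled replicate 2 (against 43.7%). The windows of 1 gene can overlap, and COL4A5 and COL4A6 share a site, so the windows are not independent and no test was made.

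The bound windows were those printed above together with that of COL13A1, a transmembrane collagen, which held a FOXA1 site in T47D. The COL12A1 window, with 21 CpG, also held a TLE3 site in T47D and in the SKBR3 pair, although the peak of SKBR3 TLE3 replicate 1 did not itself reach the window. The COL21A1 window, with 2 CpG, held a TLE3 site in T47D. The FOXA1 site over the COL4A5 and COL4A6 starts was found in MDA-MB-453, the line with the most FOXA1 sites at both genes, and not in the others. At COL18A1 the start printed above, with 9 CpG, held the T47D TLE3 site, and its other start, with 37 CpG, held none by the pairs or SKBR3 replicate 1.

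CpG content was counted in the 250 upstream bases. The median collagen window had 12.5 CpG, from 1 to 40, against 16 over all protein-coding windows. Among windows with 10 to 22 CpG, FOXA1 sites were at 1, 1 and 2 of 16 collagen windows in MDA-MB-453, SKBR3 and T47D, against 46.4%, 19.5% and 39.5% of the other windows. Among windows with 23 or more CpG they were at 0 of 11 in each line, against 38.5%, 13.4% and 30.7%. Among windows with at most 9 CpG they were at 3, 1 and 1 of 17, against 14.3%, 10.7% and 13.9%. The gap to other genes was thus seen in each line among windows with 10 or more CpG, while among the CpG-poor windows the collagen count lay above the level of other genes in MDA-MB-453 and below it in SKBR3 and T47D. That MDA-MB-453 count includes the overlapping COL4A5 and COL4A6 windows, which share a site, so its windows are not independent. The forkhead letters TGTTTAC and TATTTAC, searched on both strands with a window counted once, occurred in 0 of 44 collagen windows and in 4.27% of the 22035 windows.

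Gene ends, which can be measured for all 44 genes, held FOXA1 sites less often than those of other genes in each line. Within 1 kb of either end, FOXA1 sites were found at 10 collagen genes in MDA-MB-453 (22.7%, others 43.7%), 6 in SKBR3 (13.6%, others 25.1%) and 9 in T47D (20.5%, others 39.3%). TLE3 sites were found at 5 in T47D (11.4%, others 20.1%), 1 in MDA-MB-453 (2.27%, others 4.09%) and 1 for SKBR3 replicate 1 (2.27%, others 6.12%). For the SKBR3 TLE3 pair it was 2 (4.55%, others 4.39%), which is not lower. Of all sites at collagen genes, 52.0% to 62.3% lay inside a gene body in the 6 groups, and gene bodies made up 64.4% of the length covered.

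**Figure D3:**
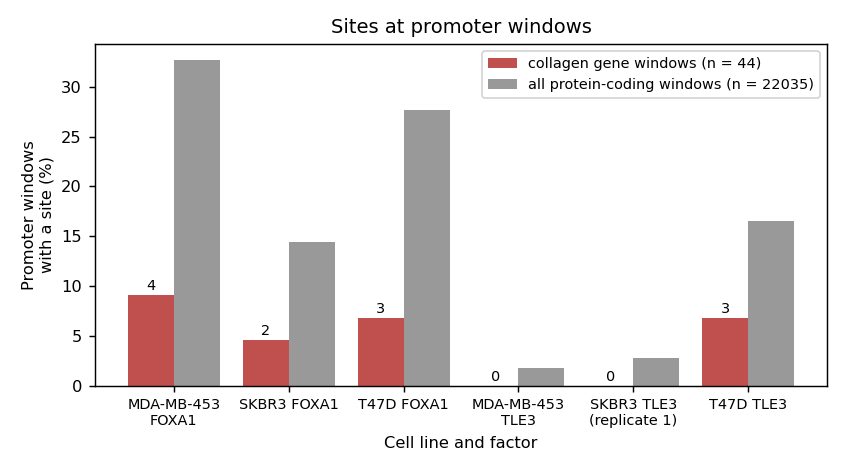
Share of promoter windows overlapped by a site (vertical axis, percent) for the 44 windows of collagen genes (red, with the number of windows above each bar) and the 22035 windows of all protein-coding genes (grey), by line and factor, SKBR3 TLE3 by replicate 1. Each red bar is lower than its grey bar, for FOXA1 in MDA-MB-453 4 windows or 9.09% against 32.7%; bars are counts without an error.

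The number of FOXA1 peaks at a gene was compared between lines with limma on log2 of the peaks within 50 kb plus 0.5, per 100000 peaks of the list, over the 6 FOXA1 libraries. Genes with a mean of at least 2 peaks were tested, which left 41 collagen genes of 18453 in all, and Benjamini-Hochberg adjusted p-values under 0.05 were called. The 3 comparisons share libraries. The shares over all genes given beside the collagen counts are not matched for gene length, and collagen genes are longer than most. Whether length bears on the number called was not tested. Neighbours that share windows, such as COL4A1 and COL4A2, were each counted. COL5A3, COL6A1 and COL6A2 did not reach the mean and were not tested. With 2 libraries a line, the p-values measure the spread between these libraries, and how the cultures were kept apart is not given in the labels.

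SKBR3 and MDA-MB-453 differed at 23 of 41 collagen genes. SKBR3 was higher at 14, against 25.7% of all genes tested, and lower at 9, against 20%. COL15A1, a basement membrane zone multiplexin, had 5 and 3 FOXA1 peaks in MDA-MB-453, 27 and 26 in SKBR3 and 14 and 10 in T47D. The lines did not overlap, and the SKBR3 value was higher by 3.22 ± 0.21 on the log2 scale (limma, ± SE, adjusted p = 1.34e-06). COL4A2 had 16 and 15, 35 and 36, and 23 and 22 peaks in the same order, a difference of 1.77 ± 0.12 (limma, adjusted p = 2.15e-06). COL4A1 had 4 and 2, 11 and 9, and 7 and 7 peaks (2.24 ± 0.26).

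COL26A1, with 4 and 1, 9 and 9, and 5 and 5 peaks, was higher in SKBR3 by 2.47 ± 0.37. The other 10 genes higher in SKBR3 were COL18A1, COL20A1, COL5A1, COL7A1, COL14A1, COL27A1, COL9A3, COL6A3, COL1A2 and COL28A1, with differences from 1.16 down to 0.42. Type IV chains thus split, with COL4A1 and COL4A2 higher in SKBR3 and COL4A5 and COL4A6 lower. Both multiplexins were higher, COL18A1 on 5 and 3 against 6 and 6 peaks.

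Genes lower in SKBR3 were led by COL19A1, a FACIT chain found at basement membrane zones. It had 37 and 31 peaks in MDA-MB-453, 3 and 2 in SKBR3 and 15 and 16 in T47D, a difference of -2.94 ± 0.20 between SKBR3 and MDA-MB-453 (limma, adjusted p = 2.13e-06). Its neighbour COL9A1, whose window overlaps, had 13 and 11, 2 and 2, and 9 and 11 peaks (-1.72 ± 0.22). COL17A1 had 11 and 10, 2 and 2, and 6 and 6 peaks (-1.54 ± 0.24). All 3 were lowest in SKBR3. COL22A1 (8 and 5 peaks, 0 and 1, 7 and 10) and COL6A5 (8 and 4, 0 and 1, 6 and 9) differed by -2.38 ± 0.44 and -2.24 ± 0.46, on few SKBR3 peaks. Both genes reached the required mean of 2 peaks through the other lines. COL8A1, COL4A5, COL10A1 and COL4A6 were lower by smaller steps, from -1.07 to -0.78. Calls for COL10A1, COL14A1, COL15A1, COL18A1, COL19A1, COL26A1, COL4A1, COL4A2, COL4A5, COL5A1 and COL9A1 (11 of 23) held under every alternative that tested them. The COL17A1 call ended with 10 kb windows and in the upper 50% of each list, where fewer peaks are counted.

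T47D and MDA-MB-453 differed at 20 of 41. T47D was higher at 9, against 16.2% of all genes, and lower at 11, against 12.5%. COL15A1 was again the gene furthest above MDA-MB-453 (1.69 ± 0.21, limma, adjusted p = 0.000258), followed by COL20A1 (1.68, on 2 and 2 against 6 and 7 peaks), COL4A1 (1.36), COL26A1 (1.28), COL6A3 (1.01), COL5A1, COL4A2 (0.72), COL27A1 and COL21A1 (0.51). COL4A6 had 33 and 31 peaks in MDA-MB-453 and 14 and 10 in T47D, and was lower in T47D by -1.20 ± 0.17 on the log2 scale. COL25A1, a transmembrane collagen of neurons, had 40 and 31 against 15 and 12 (-1.16 ± 0.14). COL13A1, COL4A5, COL19A1, COL11A1, COL8A1, COL4A4, COL4A3, COL24A1 and COL5A2 were also lower, from -1.17 to -0.48.

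Library choice moved this count. Without MDA-MB-453 FOXA1 replicate 2 it was 10, 5 in each direction, and leaving out the other libraries in turn gave 14 to 17. COL11A1, COL15A1, COL20A1, COL21A1, COL25A1, COL4A2, COL4A5 and COL4A6 (8 of 20) were called under every alternative that tested them. Over the collagen genes tested the median difference was -0.06, against 0.05 over all genes.

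T47D and SKBR3 differed at 17 of 41, with T47D higher at 6, against 20% of all genes, and lower at 11, against 22.3%. COL22A1 (2.95 ± 0.44), COL6A5 (2.78 ± 0.46), COL19A1 (2.03 ± 0.20), COL9A1 (1.66), COL17A1 (0.98) and COL21A1 (0.62) were higher in T47D. COL21A1, the FACIT gene with the bound internal start, had 36 and 30 peaks in MDA-MB-453, 40 and 42 in T47D, and 18 and 22 in SKBR3. Lower in T47D were COL15A1 (-1.53), COL26A1, COL25A1 (-1.15), COL4A3, COL14A1 (-1.06), COL4A2 (-1.05), COL11A1, COL4A1 (-0.88), COL24A1, COL5A2 and COL1A2 (-0.63). COL11A1, COL14A1, COL15A1, COL19A1, COL21A1, COL22A1, COL24A1, COL25A1, COL4A2, COL5A2 and COL6A5 (11 of 17) held under every alternative that tested them.

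In all 3 comparisons 5 of the 41 genes were called, against 6.29% of all genes tested. COL15A1, COL4A1, COL4A2 and COL26A1 had the order SKBR3, T47D, MDA-MB-453 from most to fewest peaks, and COL19A1 the reverse order. Of these, COL15A1 and COL4A2 kept each call in every alternative. For COL4A1 the step between T47D and SKBR3 was lost without SKBR3 replicate 1, without either T47D replicate and in the shortened lists, and that between T47D and MDA-MB-453 with 10 kb windows. For COL19A1 the step between T47D and MDA-MB-453 passed the threshold no more without either MDA-MB-453 replicate and with 10 kb windows, while its difference stayed between -1.43 and -0.87 in every alternative. For COL26A1 both steps to T47D were lost in several alternatives, among them leaving out either SKBR3 replicate or T47D replicate 2. At least 1 comparison called 31 of the 41 genes, against 64.6% of all 18453.

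**Figure D4:**
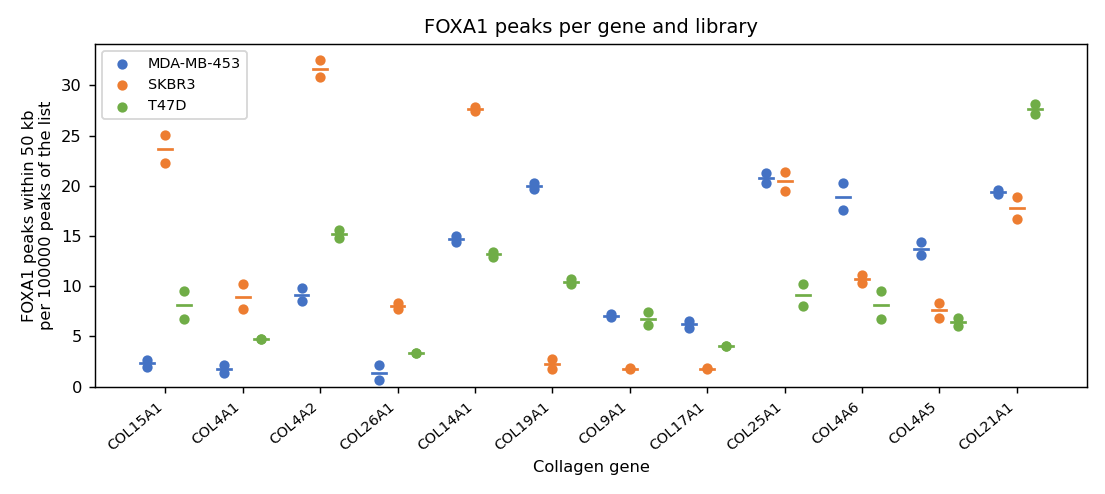
FOXA1 peaks within 50 kb per 100000 peaks of the list (vertical axis) in each of the 6 FOXA1 libraries (points, coloured by line; bars are the mean of the 2 libraries) for 12 of the genes called in at least 1 comparison, chosen for the plot after their values were seen. SKBR3 is highest at COL15A1, COL4A1, COL4A2, COL26A1 and COL14A1 and lowest at COL19A1, COL9A1 and COL17A1.

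TLE3 peaks were compared between T47D and MDA-MB-453 over 4 libraries, since the SKBR3 replicates share few peaks. Of 26 collagen genes tested among 11304, limma called 7. T47D was higher at 4, against 20.6% of all genes, and lower at 3, against 4.93%. COL18A1 had 1 and 0 TLE3 peaks in MDA-MB-453 and 7 and 7 in T47D, a difference of 2.65 ± 0.59 (adjusted p = 0.000249). COL19A1 had 9 and 6 against 2 and 2 (-2.12 ± 0.41, limma, adjusted p = 2.41e-05). Neither gene's libraries overlapped between the lines. COL18A1, however, reached the required mean of at least 2 peaks over the 4 libraries only through T47D, where it was high. The lower COL19A1 number in T47D went with fewer FOXA1 peaks there (-0.91 on the log2 scale for FOXA1).

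COL1A1, a type I chain, had 2 and 0 TLE3 peaks against 4 and 10 (2.15 ± 0.55), COL4A2 5 and 2 against 9 and 16 (1.29 ± 0.34), and COL16A1 4 and 0 against 4 and 6 (1.38 ± 0.54). COL10A1 had 7 and 5 against 2 and 3 (-1.59 ± 0.42) and COL25A1 5 and 3 against 1 and 2 (-1.65 ± 0.53). These are small numbers from lists of 42698 and 22706 peaks against 30170 and 61391, and the COL16A1 numbers met at 4 peaks. COL1A1 reached the required mean of 2 peaks only through T47D, and COL25A1 only through MDA-MB-453, in each case the line where it was high. No call of the 7 held under every alternative: 3 genes were called without MDA-MB-453 TLE3 replicate 2, 2 without T47D TLE3 replicate 1 and 2 without T47D TLE3 replicate 2. The median gene had a difference of 0.39, and the median collagen gene 0.23. When each library was centred on its median gene, an alternative added after seeing the data, 534 genes were higher and 513 lower in place of 2325 and 557, and 1 and 3 collagen genes in place of 4 and 3.

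**Figure D5:**
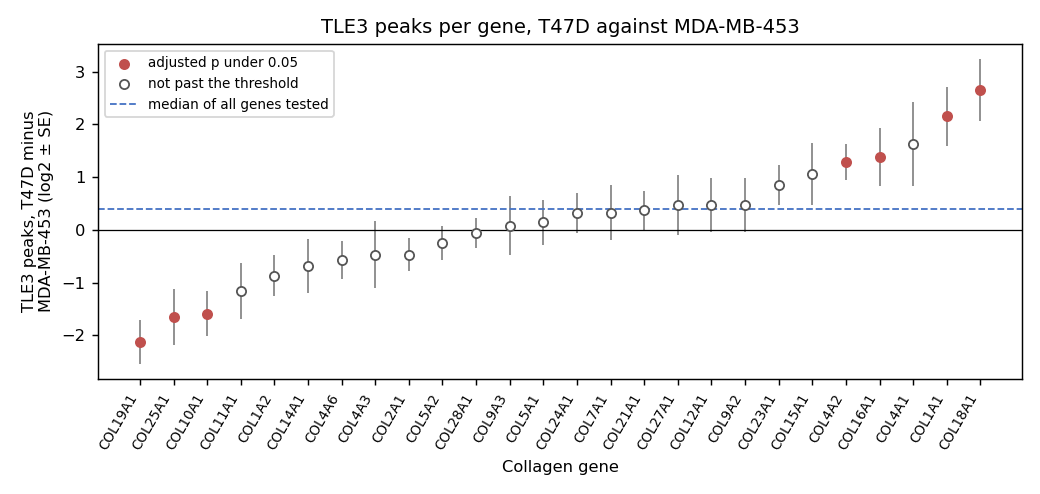
Difference in TLE3 peaks within 50 kb between T47D and MDA-MB-453 (vertical axis, log2, point ± SE from limma) for the 26 collagen genes tested, in order of the difference; filled points have an adjusted p under 0.05 and the dashed line is the median of all genes tested (0.39). COL18A1 is highest at 2.65 and COL19A1 lowest at -2.12.

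TLE3 was compared with FOXA1 over 11 libraries with the line as a covariate, leaving out the library labelled SKBR3 TLE3 replicate 2. Relative to list length, 12 of 41 collagen genes were called by limma, 7 higher for TLE3, against 20.6% of all 17299 genes, and 5 lower, against 5.68%. COL2A1 had 21 and 16 FOXA1 against 10 and 7 TLE3 peaks in MDA-MB-453, 11 and 12 against 4 in SKBR3 replicate 1, and 16 and 14 against 7 and 10 in T47D. Its TLE3 share was higher by 1.13 ± 0.17 (limma, adjusted p = 0.000223), and that of COL28A1 by 0.80 ± 0.12. COL18A1 (1.25), COL7A1 (0.87), COL9A2 (0.87), COL5A1 (0.80) and COL4A2 (0.69) were also higher. COL4A4 (-0.96), COL8A1 (-0.95), COL4A3, COL14A1 and COL21A1 (-0.57) were lower. COL4A4 and COL8A1, however, reached the required mean of 2 peaks only through their FOXA1 libraries, where they were high. In the TLE3 libraries used COL4A4 had 0 to 3 peaks and COL8A1 0 to 2.

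This comparison depends on the settings, and the cause was not tested. Cells for TLE3 alone received the extra crosslinker, so factor and crosslinker cannot be told apart in it. Of the 12 calls, 0 held under every alternative that tested them. With a pseudocount of 1 peak 17 collagen genes were called, all 17 higher for TLE3, against 44.5% of all genes called. With each library centred on its median gene 3 were higher and 8 lower, against 20.8% of all genes called. With equally long lists 1 of 13 tested was called (all genes 19.0%), with COL2A1 at -0.04 and not called, and COL28A1 at -0.46. The number was 6 without T47D FOXA1 replicate 2, 7 without T47D TLE3 replicate 1, 8 without MDA-MB-453 FOXA1 replicate 2, SKBR3 FOXA1 replicate 2 or T47D FOXA1 replicate 1, and 9 with all 12 libraries. The difference between the factors was itself compared between T47D and MDA-MB-453. Of 41 collagen genes 1 passed, COL22A1, against 7.3% of all 17505 genes. COL22A1 had too few TLE3 peaks to be tested in the TLE3 comparison of these lines.

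The genes that modify, export, process, crosslink, bind and degrade collagen were taken from a list of 50, which all matched the annotation. FOXA1 sites lay near 49, 48 and 50 of them in MDA-MB-453, SKBR3 and T47D, and TLE3 sites near 28, 28 (40 for replicate 1) and 34. Over other protein-coding genes the TLE3 shares were 55.3%, 35.3% (57.3% for replicate 1) and 74.7%, so the listed genes lay near that level in MDA-MB-453, above it in SKBR3 and below it in T47D. Counts by role give SKBR3 by the pair, with replicate 1 in parentheses, and the leading genes are those with the most TLE3 sites over the lines with SKBR3 by replicate 1. Among 13 hydroxylases and glycosyltransferases, which modify the nascent chains, 6, 9 (11) and 7 had a TLE3 site, with the most at P3H2, a prolyl 3-hydroxylase, and P4HB, the beta subunit of prolyl 4-hydroxylase. Among 6 chaperones and export genes it was 3, 2 (4) and 4, led by FKBP10 and MIA3, a receptor for procollagen export. Among 8 propeptide processing genes it was 5, 2 (7) and 7, led by ADAMTS3, a procollagen peptidase gene, and TLL1. TLL1 led through replicate 1, which had 5 of its 6 sites, and it had 0 in T47D. Of 5 lysyl oxidases 2, 2 (3) and 2 had a site, led by LOXL1 and LOXL2 with 4 sites each by replicate 1. Of 10 receptors 7, 8 (8) and 8 had a site, led by the endocytic receptor MRC2 and the integrin chain ITGA10. Of 8 degradation genes 5, 5 (7) and 6 had a site, led by the gelatinases MMP2 and MMP9.

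In the FOXA1 comparisons by limma, 17 of these 50 genes were higher and 11 lower in SKBR3 than in MDA-MB-453, against 25.7% and 20% of all genes tested. For T47D against MDA-MB-453 the numbers were 10 and 5 (all genes 16.2% and 12.5%), and for T47D against SKBR3 8 and 14 (20% and 22.3%). LOXL2 had the same order of lines as COL15A1, higher in SKBR3 than in MDA-MB-453 by 2.56 ± 0.31 and lower in T47D than in SKBR3 (-1.65 ± 0.31). P3H2 was higher in SKBR3 by 1.28 ± 0.17 and ADAMTS3 by 0.72 ± 0.13. For TLE3 in T47D against MDA-MB-453, 3 of 30 were higher and 0 lower (all genes 20.6% and 4.93%). P4HB was higher in T47D by 3.75 ± 0.67 (limma, adjusted p = 3.49e-06). It had 0 TLE3 sites in MDA-MB-453 and 5 in T47D, so it met the required mean mainly through T47D, where it was high. For TLE3 against FOXA1, 7 of 48 were higher and 3 lower (all genes 20.6% and 5.68%), FKBP10 by 1.44 ± 0.20 and MMP9 by 1.54 ± 0.29.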

How the data were processed

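Peak lists of 12 ChIP-seq libraries were analysed, 2 replicates for each of 2 factors in 3 lines; the 6 input samples were not used here. The hg38 build and the tools MACS2, BWA 0.7.5a, SAMtools and Trim Galore are named per the submitters' processing notes, with peak caller settings not given in the sources used here. The authors deposited 1 list per library, with a score per peak whose quantity is not named, so it served to rank peaks within a list only. Depth is unknown, and the number of peaks limits precision.

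Gene positions and promoter sequences came from RefSeq GRCh38.p14 tables. Peaks of both replicates overlapping by at least 1 bp made a site. Python 3.11.15 with pandas 2.3.3 counted sites. limma 3.58.1 in R 4.3.3, with trended variance and Benjamini-Hochberg adjustment, tested peaks per gene (pseudocount 0.5, mean of at least 2 peaks, threshold 0.05), and was tested on simulated data. The counts of genes with a site, promoters and overlaps have no test.

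The members, the gene lists and the library set aside were chosen with earlier results of these data known. Named were members called by limma, the 5 with the most sites per line and factor, those without sites, 12 set members, the 5 highest ranked sites and any promoter site, and the 2 pathway genes per role with the most TLE3 sites. Alternatives were 10 kb windows, the nearest gene alone, an overlap of 50%, sites of either replicate, the upper 50% of each list, equally long lists, a pseudocount of 1, no filter, a replicate block, each library left out, all 12 libraries and, added after seeing the data, centring on the median gene.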

Additional observations from a re-analysis of the deposited data

Results flagged for a closer look

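For COL22A1, a FACIT collagen of tissue junctions, the difference between TLE3 and FOXA1 peaks within 50 kb was not the same in T47D and MDA-MB-453. In MDA-MB-453 the gene had 8 and 5 FOXA1 and 2 and 3 TLE3 peaks, and in T47D 7 and 10 FOXA1 and 0 and 1 TLE3 peaks. The interaction term differed by -2.81 on the log2 scale (limma, Benjamini-Hochberg adjusted p = 0.0173 over 17505 genes). COL22A1 was the only 1 of 41 collagen genes to pass, against 7.3% of all genes tested. The difference rests on 0 to 3 TLE3 peaks per library, too few for the TLE3 comparison of these lines. COL22A1 passed the filter here through its FOXA1 peaks, and the interaction was fitted in the main setting alone.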

How the results depend on the processing

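Counts of collagen genes with a site changed most where lists were shortened or the SKBR3 TLE3 replicates were taken apart. With equally long lists FOXA1 sites were near 25 collagen genes in MDA-MB-453 (42 at full length, others then 54.5%) and 20 in T47D (44, others then 58.3%), so that T47D collagen genes lay below the others. In the upper 50% of each list TLE3 sites were near 16 in MDA-MB-453 (30), close to the share of the other genes under that setting. For the SKBR3 TLE3 pair (15) the count was 3 in the upper 50%, also close to the share of the others. With equally long lists it was 2 (others then 7.31%). It was 44 with peaks of either replicate, where nearly all other genes also had a site. With 1 replicate left out it was 28 to 44 (others 57.3% and 96.5%). Collagen genes called for FOXA1 in T47D against MDA-MB-453 (20) ranged from 10 to 17 with 1 library left out. For TLE3 between these lines (7) they were 2 with 10 kb windows, 2 in the upper 50%, 4 with equally long lists, 4 with centred libraries and 2 to 8 with 1 library left out. For TLE3 against FOXA1 12 of 41 tested were called, against 26.2% of all genes. In the upper 50% it was 7 of 29 (all genes 30.8%), and with equally long lists 1 of 13 (19.0%). With 1 library left out the count was 6 to 13. With equally long lists COL28A1 was called in the opposite direction (-0.46, limma adjusted p = 0.0078, against 0.80), and COL2A1 was near 0 and not called (-0.038, limma adjusted p = 0.848, against 1.13). The causes were not tested, beyond the fewer genes that shorter lists and 10 kb windows leave to test.

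Over all genes the calls also moved by more than 1.5 times. FOXA1 calls in T47D against MDA-MB-453 were 5298, and 2725 with 10 kb windows, 3080 and 2423 without MDA-MB-453 FOXA1 replicates 1 and 2. Against SKBR3 they were 7805 and 4516 with 10 kb windows, and for SKBR3 against MDA-MB-453 8450 and 5173. For TLE3 in T47D against MDA-MB-453 they were 2882, and 710 with 10 kb windows, 885 in the upper 50%, 1687 with equally long lists, 1047 centred, 1756 without MDA-MB-453 TLE3 replicate 2, and 337 and 533 without T47D TLE3 replicates 1 and 2. For TLE3 against FOXA1 they were 4537 (3555 higher), and 7700 with a pseudocount of 1 (7254 higher), 901 with equally long lists and 2900 with all 12 libraries, while centring gave 1537 higher and 2060 lower.

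Whether replicates with the same number were prepared together is not given in the labels. The 10 correlations of replicate differences between groups lay between -0.07 and 0.07, which cannot show how they were prepared. With a replicate block the collagen calls were 20, 18 and 23 for FOXA1 (T47D against MDA-MB-453, T47D against SKBR3, SKBR3 against MDA-MB-453), 6 for TLE3 and 10 for TLE3 against FOXA1. Over all genes the block gave 2113 calls in place of 2882 for TLE3, and 3927 in place of 4537 for TLE3 against FOXA1.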

Other observations

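The library labelled SKBR3 TLE3 replicate 2 had its highest scored peaks at collagen genes in places where SKBR3 had no FOXA1 site. They lay in COL27A1, a cartilage fibrillar chain (chr9:114290100-114291935), COL11A1 (chr1:102970169-102971286), COL5A1 (chr9:134738489-134739957) and COL16A1 (chr1:31663175-31664813), and 45932 bp outside COL27A1 (chr9:114107554-114108778). All 5 differ from the leading sites of SKBR3 TLE3 replicate 1, which lay at COL5A2, COL26A1 and COL2A1. The same library had peaks within 1 kb of a gene end at 18 collagen genes (40.9%, others 57.0%), among them COL1A1, COL1A2, COL4A1, COL6A1, COL6A2 and COL6A3, against 1 for replicate 1. COL13A1, with no TLE3 site in any line by the pairs or replicate 1, had 25 peaks in this library. The cause was not tested.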
